A study of Mus musculus with 8 samples.

Results

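4-Hydroxytamoxifen (4OHT) against ethanol in T29 cells that carry the empty MigR1 vector is the comparison reported here, chosen by the array titles as 4 of the 8 arrays of the series. T29 was derived from a mouse thymic lymphoma and is described in the series as deficient for Ikaros, a zinc finger regulator of lymphocyte genes, and MigR1 is a retroviral vector. The 2 MigR1 4OHT arrays were set against the 2 MigR1 ethanol arrays, and the other 4 arrays hold cells with MigR1-Ik1ER, a fusion of Ikaros to a 4OHT-responsive receptor domain, under the same treatments. Cells received 100 nM 4OHT or ethanol, its solvent, for 24 h before total RNA was extracted. Both MigR1 groups thus share the line, its Ikaros deficiency and the empty vector, hold no Ikaros fusion, and differ in the drug. The comparison asks what the inducer does when there is no fusion to induce. The labels number the arrays 1 and 2 in each group but do not say that they came from separate cultures, so the p-values rest on differences between arrays that may be technical only. With 2 arrays against 2, an exact permutation test of a single gene cannot give a two-sided p below 0.333, and the number of arrays limits the precision.

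4OHT is an active metabolite of tamoxifen. It binds the ligand pocket of estrogen receptors, which is why receptor domains fused to a protein of interest can be released from cytoplasmic chaperones with it, and tamoxifen-like compounds also bind the sterol enzymes Ebp and Dhcr7 and have been studied as ligands of the aryl hydrocarbon receptor. A second system matters for the results below. The hypoxia-inducible factors (HIF) are pairs of Hif1a or Epas1 with Arnt that bind promoters and enhancers at a short core motif, and prolyl hydroxylases (Egln1 to Egln3) mark the alpha subunit for destruction by Vhl when oxygen is plentiful. Their targets import glucose, run glycolysis and signal to vessels, and they are known to be active in poorly oxygenated tissue, the thymus among them.

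The line and the arrays were checked first. Of 14 T cell markers measured, 12 lay above 5.27 on the log2 scale, the highest mean of any Bacillus control probe set, which match no mouse transcript and serve as a gauge of background. Cd3d read 13.5 to 13.6 and Bcl11b 11.95 to 12.09 on the 4 MigR1 arrays. Markers of other cell types lay mostly at background: 3 of 9 B cell markers, 3 of 10 myeloid, 2 of 5 erythroid, 2 of 9 stromal and epithelial, and 2 of 5 cytotoxic markers were above the gauge. Among the cytotoxic markers the protease Gzma read 12.8 to 13.1 without a difference between treatments (0.02), while the killer cell receptor Ncr1 was below the gauge. None of the 52 measured markers was called between 4OHT and ethanol, and their part in any difference below was not tested. The 5 erythroid markers all read above 0 (median 0.11), with list means of 5.26 and 5.28 on the ethanol arrays against 5.37 and 5.35 on the 4OHT arrays, and the globin gene Hba-a1 among them was below the gauge on all 4. Of the 9 B cell markers 7 read below 0 (median -0.09), with list means that overlapped between the treatments, and the B lineage factor Ebf1 and the antigen receptor subunit Cd79b were below the gauge. In bulk RNA, fewer cells of a type and less RNA per cell cannot be told apart. The Ikaros gene Ikzf1 read 10.20 to 10.36 on the MigR1 arrays, from a probe set whose place relative to the lesion of the line is unknown here, so this level checks nothing about the deficiency. Another probe set of Ikzf1 read 8.12 to 8.51 on the MigR1 arrays and 10.45 to 11.27 on the Ik1ER arrays, a difference that was not tested. Replicate arrays differed with a standard deviation (SD) across genes of 0.147 on the log2 scale for ethanol and 0.157 for 4OHT, and same-numbered arrays of the 2 treatments by 0.134 (replicate 1) and 0.131 (replicate 2). Both Ik1ER replicate 2 arrays, which enter the shared error, stood apart on a control of RNA quality: the 3′ minus 5′ level of the transferrin receptor probe sets was 1.66 and 1.91 on them and 1.15 to 1.39 on the other 6 arrays.

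1 gene was called lower and none was called higher. Of 18193 genes tested, only Adm, which encodes the vasodilator peptide adrenomedullin, was called at an adjusted p under 0.05 (0.00550% of genes; 0.00% were called higher and 0.00550% lower). Here and below, calls come from limma's moderated test with Benjamini-Hochberg adjustment over all genes, and changes are 4OHT minus ethanol on the log2 scale of the robust multi-array average (RMA). At an unadjusted p under 0.05 stood 386 genes (2.12%), 176 higher (0.967%) and 210 lower (1.15%), and this split leaned the other way, at 243 higher and 159 lower, when each array was centred on its median, and at 242 and 154 without MigR1 ethanol replicate 1. The SD of the changes over all genes was 0.0955, against 0.248 for the same treatment in Ik1ER cells, where 973 genes (5.35%) were called, 516 higher (2.84%) and 457 lower (2.51%). The Ik1ER count was 439 without ethanol replicate 1 of that line, 440 without its ethanol replicate 2 and 388 without both its replicate 2 arrays.

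**Figure D1:**
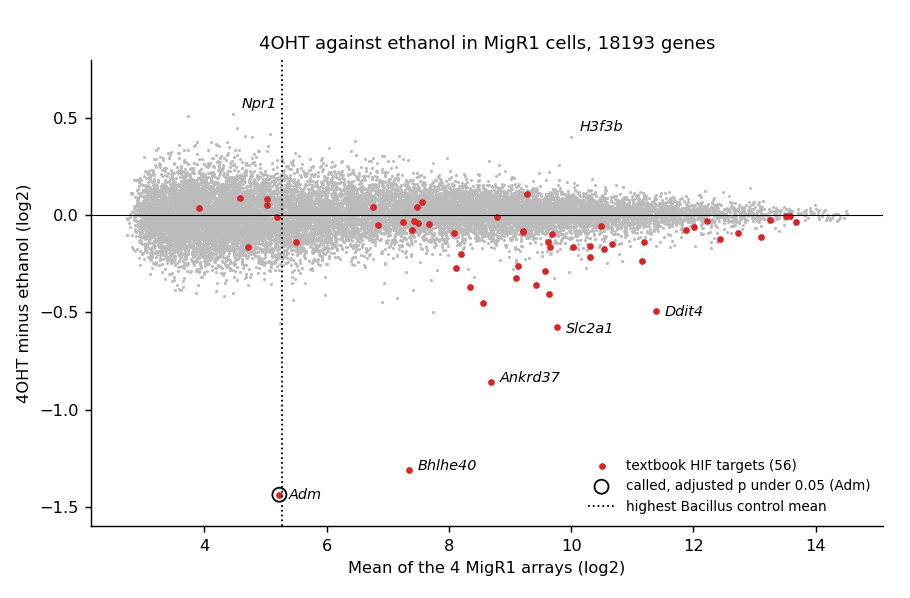
Change between 4OHT and ethanol in MigR1 cells (log2, vertical axis) against the mean level on the 4 MigR1 arrays (log2, horizontal axis), 1 point per gene. Red points are the 56 textbook HIF targets measured and the ring marks Adm, the only called gene; Adm, Bhlhe40, Ankrd37 and Slc2a1 lie below the cloud, and 1% of genes lie under -0.25.

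The intervals bounded what could have gone unseen only as far as the differences between these arrays measure the error. The standard error (SE) of a change had a median of 0.0954, and the 95% interval of a change reached 0.220 to either side at the median gene. For 17773 genes (97.7%) the interval lay within 1.5-fold of no change, and for 18175 (99.9%) within 2-fold. The intervals of 18 genes reached past 2-fold. Of the 11225 genes above the background gauge, 10964 had an interval within 1.5-fold. The error came from differences between arrays of both lines that may be technical only, so variation between cultures may not be covered. These intervals are not adjusted for the number of genes. They hold for the log2 scale of RMA, which sets arrays to a common distribution and compresses the changes of dim genes, so the bound is looser for the 6968 genes at or below the gauge.

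Adm carried the one call. Its level was 6.12 and 5.78 on the ethanol arrays and 4.48 and 4.54 on the 4OHT arrays. Both 4OHT arrays lay below both ethanol arrays and below the background gauge, so the size of the fall is open to compression. The change was -1.44 (SE 0.12, 95% interval -1.71 to -1.16, n = 2 arrays a group), with a limma p of 2.08e-06 and an adjusted p of 0.0379. Another probe set of Adm, which stayed above the gauge on all 4 MigR1 arrays, read 6.41 and 6.07 with ethanol and 5.44 and 5.46 with 4OHT. Its difference was -0.79 and was not called when every probe set was adjusted for. In Ik1ER cells Adm read 4.91 and 4.78 with ethanol and 4.36 and 4.50 with 4OHT, so the MigR1 ethanol arrays were the highest of the 8. The Ik1ER change was -0.41 and was not called (adjusted p 0.102), and the difference between the lines was called (1.03, adjusted p 0.0328). The Adm call was lost without MigR1 ethanol replicate 1 (-1.27, adjusted p 0.163), without either MigR1 4OHT array (adjusted p 0.810 without replicate 1 and 0.616 without replicate 2), without any one of the 4 Ik1ER arrays (0.120 to 0.128), when the 4 MigR1 arrays were fitted alone or without both Ik1ER replicate 2 arrays (adjusted p 0.766 in either fit), and with the replicate number as a block, over all arrays (0.110) or within each line (0.389). In 18 alternatives the change stayed between -1.61 and -1.11. In many of them it could not leave -1.44, since the MigR1 values that gave it were the same.

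The 3 genes with the next deepest differences, Bhlhe40, Ankrd37 and Slc2a1, are HIF targets as Adm is, though none of them was called. Il10ra, which is on none of the lists used here, read close to Slc2a1 at -0.56, with separate groups. Its mean of 5.23 lay below the gauge, and its other probe sets read -0.17 and -0.12. Bhlhe40, a transcriptional repressor of the circadian and hypoxia responses, read 8.34 and 7.66 with ethanol and 6.57 and 6.81 with 4OHT. Its difference was -1.31 (SE 0.27, unadjusted p 0.00116). Ankrd37, an ankyrin repeat protein used as a hypoxia marker, read 9.37 and 8.87 with ethanol and 8.30 and 8.22 with 4OHT. Its groups did not overlap either, and the difference was -0.86 (SE 0.18, unadjusted p 0.00133). Adm, Bhlhe40 and Ankrd37 were the only 3 genes of all those tested at or past 1.5-fold, and the first 2 of them at or past 2-fold. Leaving out 1 MigR1 array raised the count past 1.5-fold to 15 (without ethanol replicate 1), 17 (without ethanol replicate 2), 11 (without 4OHT replicate 1) or 13 (without 4OHT replicate 2). In Ik1ER cells, 4OHT and ethanol levels of Bhlhe40 overlapped, with a change of -0.04, and Ankrd37 read 0.27 higher with 4OHT. The difference between the lines was not called for either gene (1.27 with adjusted p 0.204 for Bhlhe40, and 1.13 with adjusted p 0.0891 for Ankrd37).

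**Figure D2:**
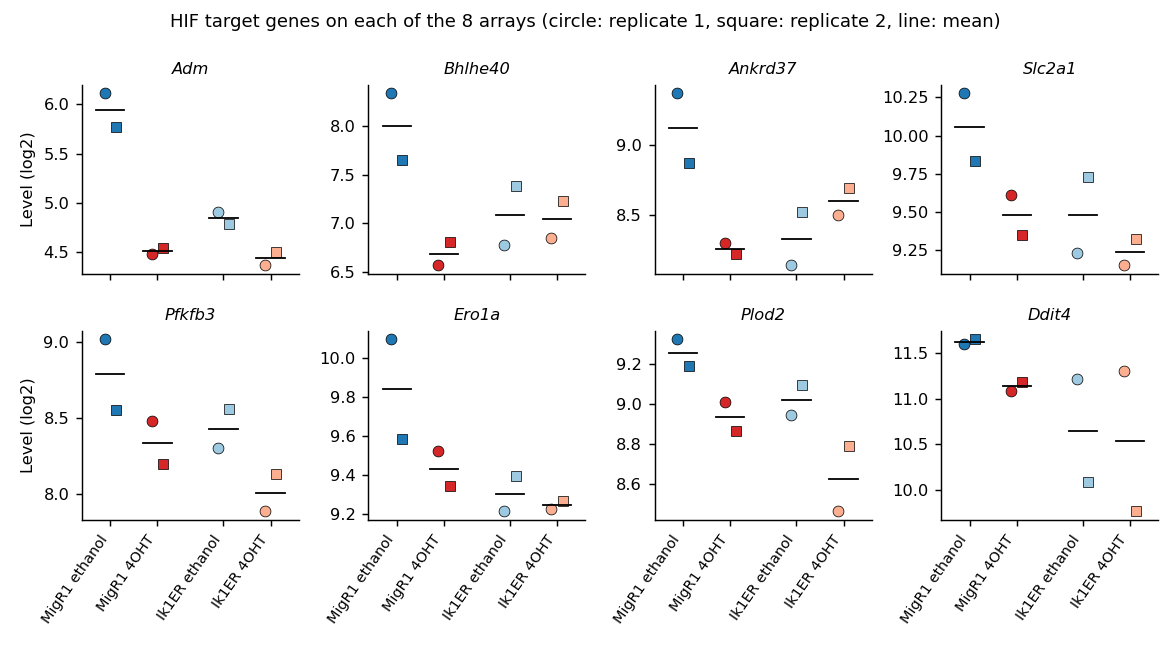
Level (log2, vertical axis) of 8 HIF targets on each array of the 4 groups, with circles for replicate 1, squares for replicate 2 and lines for group means of 2 arrays. Both MigR1 ethanol arrays lie above both MigR1 4OHT arrays for all 8, and for all but Pfkfb3 they are the highest arrays of the series. The 8 were chosen with their values known, so this follows from the choice. Of the 56 textbook HIF targets measured, 26 were separate and lower with 4OHT (13.1% of all genes). Both MigR1 ethanol arrays were the highest of the series for 13 of the 56 (2.70% of all genes).

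Promoters of Adm, Ankrd37 and Slc2a1 are shown because the genes read lower together and the core HIF motif can be read in their letters. Each sequence is the 250 bases before the gene's start from RefSeq (build GRCm38.p6), 5′ to 3′ on the gene's strand, and capitals mark ACGTG or GCGTG on either strand, so that CACGT and CACGC are the same motifs on the opposite strand.
Adm (chr7:110627407-110627656, plus strand): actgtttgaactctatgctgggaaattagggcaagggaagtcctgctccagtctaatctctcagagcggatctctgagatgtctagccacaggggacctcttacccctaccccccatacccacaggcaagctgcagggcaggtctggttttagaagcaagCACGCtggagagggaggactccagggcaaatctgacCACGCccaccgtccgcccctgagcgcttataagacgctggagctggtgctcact
Ankrd37 (chr8:45999851-46000100, minus strand): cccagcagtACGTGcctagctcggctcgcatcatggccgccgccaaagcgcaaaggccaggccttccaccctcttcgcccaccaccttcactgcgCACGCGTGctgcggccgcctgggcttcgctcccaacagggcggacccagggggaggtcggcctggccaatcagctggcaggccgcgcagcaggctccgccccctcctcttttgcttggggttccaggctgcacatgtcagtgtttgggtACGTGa
Slc2a1 (chr4:119108495-119108744, plus strand): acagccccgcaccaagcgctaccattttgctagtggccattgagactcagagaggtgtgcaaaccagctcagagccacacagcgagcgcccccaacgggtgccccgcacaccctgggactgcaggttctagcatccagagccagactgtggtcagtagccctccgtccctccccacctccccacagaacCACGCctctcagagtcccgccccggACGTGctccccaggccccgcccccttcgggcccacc
The Adm window holds 2 matches, both CACGC. The Ankrd37 window holds 4, of which a pair overlap, and the Slc2a1 window holds 2. Over 250 bases before to 50 after the start, 8574 of the 14452 tested genes with a RefSeq promoter (59.3%) hold either letter string, so a match is common. The share was 15 of 16 (93.8%) for the glycolysis and hypoxia list described below and 42 of 46 (91.3%) for the textbook HIF targets. A match describes letters only and is not a site of binding.

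Glucose import, glycolysis and further hypoxia genes were covered by a list of 20 genes, 17 of them measured and all of these above the background gauge. None was called, and all 17 changes were below 0 (16 with each array centred on its median or with the mean over probe sets), against 46.2% of all genes, with a median of -0.11 against 0.01 for all genes. For 9 of the 17 both 4OHT arrays lay below both ethanol arrays (13.1% of all genes), and for none above. Slc2a1, the main glucose transporter of proliferating cells, read 10.28 and 9.83 with ethanol and 9.61 and 9.35 with 4OHT. Its difference of -0.57 (SE 0.20, unadjusted p 0.0198) was the deepest of the list, and the other probe sets of the gene read -0.53 and -0.46. Hk2, the inducible hexokinase that traps glucose in the cell, read 9.82 and 9.39 with ethanol and 9.36 and 9.13 with 4OHT (-0.36). The groups of both genes were separate, by 0.217 for Slc2a1 and by 0.0332 for Hk2.

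The other members named here differed by less than Slc2a1 and Hk2. Vegfa, the angiogenic growth factor, stood at -0.27, the high-affinity glucose transporter Slc2a3 at -0.29 with overlapping arrays, and Egln3, the HIF prolyl hydroxylase that HIF itself induces, at -0.24. The mitophagy receptor Bnip3 and the phosphofructokinase Pfkp each stood at -0.16, and Pdk1, which keeps pyruvate out of mitochondria, at -0.15. Other probe sets read -0.16 for Vegfa and -0.38, -0.02 and 0.04 for Slc2a3. They read 0.06 and -0.16 for Pfkp and -0.06, -0.13 and -0.52 for Pdk1. The abundant enzymes at the end of glycolysis, Pgk1 (-0.04), Pkm (-0.02) and Ldha (-0.01), differed by less than their SE of 0.07 to 0.08.

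1 array weighed on the list. MigR1 ethanol replicate 1 was the highest of the 4 MigR1 arrays for 16 of the 17 genes. The mean level of the list was 11.07 with ethanol and 10.86 with 4OHT for replicate 1, and 10.86 and 10.74 for replicate 2. So ethanol replicate 2 and 4OHT replicate 1 were alike, while the mean was lower with 4OHT at either replicate number. No label ties these numbers to a culture or day. With a replicate block within each line, 5 of the 17 stood lower at an unadjusted limma p under 0.05 (423 of all genes). The main fit had 1 of the 17 (210 of all genes). Leaving out 1 array, as next, makes the replicate numbers unequal between the treatments. Without ethanol replicate 1 only 11 of the 17 changes were below 0 and the median was -0.03; without ethanol replicate 2 the median was -0.19, and without 4OHT replicate 2 it was -0.05. In Ik1ER cells the same list had a median of -0.13 with 15 of 17 below 0. There 1 was called lower (Aldoc, a fructose-bisphosphate aldolase), as were 2.51% of all genes. None of the 17 was called for a difference between the lines.

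**Figure D3:**
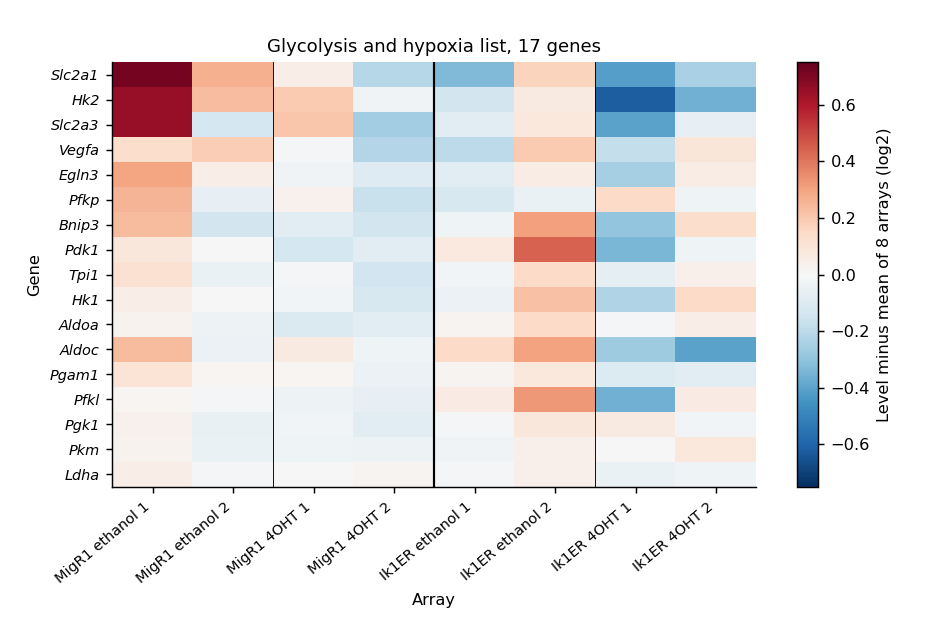
Level of the 17 measured glycolysis and hypoxia genes (rows) on each of the 8 arrays (columns), as the log2 difference from the gene's own mean over the 8 arrays, with red above and blue below. MigR1 ethanol replicate 1 is the highest MigR1 array for 16 of 17 genes, and on all 8 arrays it is highest for 7 and Ik1ER ethanol replicate 2 for 9.

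A wider list of 58 textbook HIF targets, put together after the values had been seen and therefore only a description, had 56 members measured, 49 of them above the gauge. Adm was its 1 call, 48 changes were below 0 (44 with each array centred on its median) and the median was -0.09. In Ik1ER cells 44 of the 56 were below 0 with a median of -0.10, and 6 were called there, 3 of them lower (5.35% and 2.51% of all genes). The arrays did not overlap for 27 of the 56, 26 lower and 1 higher, where 13.1% of all genes were separate and lower and 16.7% separate and higher. The one higher was Angptl4, a lipase inhibitor, at 0.11. For 13 of the 56, among them Adm, Bhlhe40, Ankrd37, Slc2a1, Plod2, Ero1a and Ddit4, both MigR1 ethanol arrays were higher than all 6 other arrays, against 492 of all genes (2.70%). MigR1 ethanol replicate 1 weighed on this list too: it was the highest MigR1 array for 45 of the 56 and ethanol replicate 2 for 4, and the list mean was 9.28 and 9.08 with ethanol against 9.03 and 8.97 with 4OHT. Without ethanol replicate 1 only 32 of the 56 were below 0, with a median of -0.03. By role, the collagen-modifying enzyme Plod2 read 9.32 and 9.19 with ethanol and 9.01 and 8.86 with 4OHT (-0.32, unadjusted p 0.0297). The other probe set of Plod2 read -0.03, with overlapping arrays. Pfkfb3, which makes the activator of phosphofructokinase, read 9.02 and 8.56 with ethanol and 8.48 and 8.19 with 4OHT (-0.45, unadjusted p 0.0340). The other probe set of Pfkfb3 read -0.16. Ero1a, the oxidase that feeds disulfide bonds into new proteins, read 10.10 and 9.58 with ethanol and 9.52 and 9.34 with 4OHT (-0.41, unadjusted p 0.0327), and its other probe sets read -0.10 and -0.28. On the probe sets that stood for them, these 3 genes were separate between the groups by 0.182 (Plod2), 0.0752 (Pfkfb3) and 0.0617 (Ero1a).

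Ddit4, an inhibitor of mTOR complex 1 induced by stress and hypoxia, showed how the shared error acts. It read 11.60 and 11.65 with ethanol and 11.08 and 11.19 with 4OHT, groups that were far tighter than their difference of -0.49. In the fit of all 8 arrays the SE was 0.49 and the unadjusted p 0.343, where the Ik1ER replicates differed by 1.13 (ethanol) and 1.54 (4OHT). With the 4 MigR1 arrays alone the unadjusted p was 0.000645 and the gene was still not called after adjustment. Gdap10 read 7.75 and 8.22 with ethanol and 7.34 and 7.63 with 4OHT (-0.50). Its groups were separate by 0.115, less than the gap between its own replicates.

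None of the oxygen sensors or the factors themselves was called. Hif1a, the oxygen-regulated subunit, read 11.33 and 11.41 with ethanol and 11.36 and 11.42 with 4OHT (0.02). Its partner Arnt stood at 0.01, and Vhl at 0.00. The second alpha subunit Epas1 was at -0.12 and the hydroxylase that inhibits HIF transcription, Hif1an, at 0.11. Of 9 such genes measured, 5 were below 0, the median was -0.05 and the lowest members were Egln3 (-0.24) and Egln1 (-0.22), both listed as HIF targets too. HIF protein is set largely by its stability, which RNA levels do not measure.

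Proteins that bind 4OHT or related ligands, with Arnt as the partner of Ahr, were read next as RNA. Of 13 such genes measured, 5 lay above the background gauge: Esr1, Esrra, Ebp, Dhcr7 and Arnt. Esr1, estrogen receptor alpha, read 5.68 and 6.42 with ethanol and 6.13 and 6.29 with 4OHT, so the ethanol arrays enclosed the 4OHT arrays (0.16, 95% interval -0.48 to 0.80). Its other probe sets had means of 4.52 and 3.01, below the gauge. Esr2, the second estrogen receptor, stood at 5.06, Gper1, a membrane estrogen receptor, at 4.33 and the aryl hydrocarbon receptor Ahr at 4.68, also below the gauge. The sterol isomerase Ebp read 9.82 to 9.86 with ethanol and 9.81 to 9.84 with 4OHT. None of the 13 was called, the changes ran from -0.09 (Nr1i3) to 0.16 (Esr1), and the intervals of 12 lay within 1.5-fold.

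Estrogen receptor targets showed no call either. Of 17 measured, 12 were below 0 (46.2% of all genes) with a median of -0.06, and 6 had 4OHT arrays below both ethanol arrays with none above (13.1% and 16.7% of all genes). Several classical targets read near 0. Greb1, a growth regulator, stood at -0.06, Tff1, a secreted trefoil peptide, at -0.08 and Ctsd, a lysosomal protease, at 0.03. Pgr, the progesterone receptor, stood at -0.03 and below the gauge. Igfbp4 was the highest of the 17 at 0.22, but its replicates differed by 1.62 with ethanol and 1.73 with 4OHT. The intervals of 14 of the 17 lay within 1.5-fold and of 16 within 2-fold, and the widest limits were -1.25 and 1.69. Ccn5, a matricellular protein, read 5.65 and 5.72 with ethanol and 5.46 and 5.45 with 4OHT (-0.23, unadjusted p 0.0251). The secreted glycoprotein Stc2 read 8.50 and 8.56 with ethanol and 8.04 and 8.28 with 4OHT (-0.37), and it is a HIF target as well. Its other probe sets read -0.22 and -0.31. The 11 coregulators measured ran from -0.10 to 0.09. The estrogen response element (GGTCA, any 3 bases, then TGACC) occurred on either strand in 0 of 13 promoters of the targets and in 5 of the 14452 tested genes with a promoter (0.0346%).

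Aryl hydrocarbon receptor targets gave differences of both signs. The 8 measured split into 4 above and 4 below 0, and only Nqo1 and Tiparp lay above the gauge. Nqo1, a quinone reductase, read 6.720 and 7.003 with ethanol and 6.950 and 7.119 with 4OHT, overlapping groups with a change of 0.17. The canonical target Cyp1a1, a drug-oxidising cytochrome, stood at 0.13, Cyp1b1 at -0.19 and the feedback repressor Ahrr at 0.20, all below the gauge. The core xenobiotic response element TNGCGTG, whose last letters are one of the HIF strings above, occurred in 1 of 7 promoters of the targets (14.3%) against 1156 of the 14452 tested genes. Of 14 genes of drug metabolism and efflux, 4 were above the gauge, and the changes ran from -0.10 to 0.16. For Nqo1 the difference between the lines was called (-0.91, adjusted p 0.0361), from a fall of 0.74 in Ik1ER cells.

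Sterol synthesis genes were bright, and none separated between the treatments. All 20 measured genes were above the gauge, the changes ran from -0.27 (Lss, lanosterol synthase) to 0.12 (Nsdhl, a sterol dehydrogenase), and the arrays of the treatments overlapped for all 20, whereas they did not for 29.8% of all genes. The intervals of 19 lay within 1.5-fold and of all 20 within 2-fold. The mean of the list was 10.29 and 10.50 on ethanol replicates 1 and 2 and 10.26 and 10.48 on the 4OHT replicates 1 and 2, so both replicate 2 arrays were higher by about the same amount. Squalene epoxidase Sqle read 11.57 and 11.69 with ethanol and 11.56 and 11.73 with 4OHT. The sterol regulatory element (TCAC, any base, then CCAC) occurred on either strand in 1 of 16 promoters of the list (6.25%) against 1.46% of tested genes.

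The remaining lists covered the cell's state and the pathways of a T cell lymphoma. Among stress programs, no member was called of 14 genes of the NRF2 response, 18 of the unfolded protein and integrated stress responses, 11 heat shock genes, 13 p53 targets, 13 BCL2 family genes and 18 lysosome and autophagy genes, with medians of -0.03 to 0.03. The widest difference was in the cystine importer Slc7a11 at 0.28, with overlapping arrays. No proliferation gene was called. The 20 S phase genes ran from -0.04 to 0.12, the 19 mitotic genes from -0.17 to 0.19, the 14 cell cycle inhibitors from -0.18 to 0.15 and the 20 genes of MYC and ribosome biogenesis from -0.09 to 0.23. The 18 respiratory chain genes had a median of 0.01, and the intervals of all 18 lay within 1.5-fold. Fatty acid synthesis genes and targets of the liver X receptors had 11 of 14 changes below 0, a median of -0.05 and no call.

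Signals of the T lineage gave no call. Of 18 Notch pathway genes 14 were below 0 with a median of -0.08; 6 had lower and 2 had higher 4OHT arrays (13.1% and 16.7% of all genes). Dtx1, a Notch-induced ubiquitin ligase, read 9.85 and 9.91 with ethanol and 9.63 and 9.48 with 4OHT (-0.32), and Nrarp, a feedback inhibitor of Notch, 9.40 and 9.33 against 9.22 and 9.06 (-0.23). The groups of both were separate, by 0.217 for Dtx1 and by 0.118 for Nrarp, with unadjusted p of 0.111 and 0.0598. Hes1, the best-known Notch target, overlapped (-0.12). In Ik1ER cells 5 of the 18 were called (5.35% of all genes), and for 1 of the 18, Fjx1, the difference between the lines was called (1.26% of all genes).

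Among 17 T cell receptor and signalling genes, Cd2, an adhesion receptor, read 5.33 and 5.20 with ethanol and 5.13 and 4.70 with 4OHT (-0.35, unadjusted p 0.0428), straddling the gauge. The other 16 ran from -0.08 to 0.14. The 15 genes of V(D)J recombination and early thymocytes had 10 below 0 (46.2% of all genes) and no separated groups (29.8% of all genes were separate). Of 12 homing genes 10 were below 0 with a median of -0.09. Of 20 immediate early and activation genes, Ier3, an early response survival gene, was the lowest (7.82 and 7.37 with ethanol, 7.31 and 7.12 with 4OHT, -0.38, unadjusted p 0.0454). The 17 interferon response genes had a median of 0.02, and the 12 genes of TGF-beta signalling a median of 0.01. The Ikaros family stayed within -0.06 (Ikzf2) and 0.02 (Ikzf3), and the 18 genes of the NuRD and Polycomb repressive complexes, with which Ikaros is known to work, within -0.14 and 0.08.

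**Figure D4:**
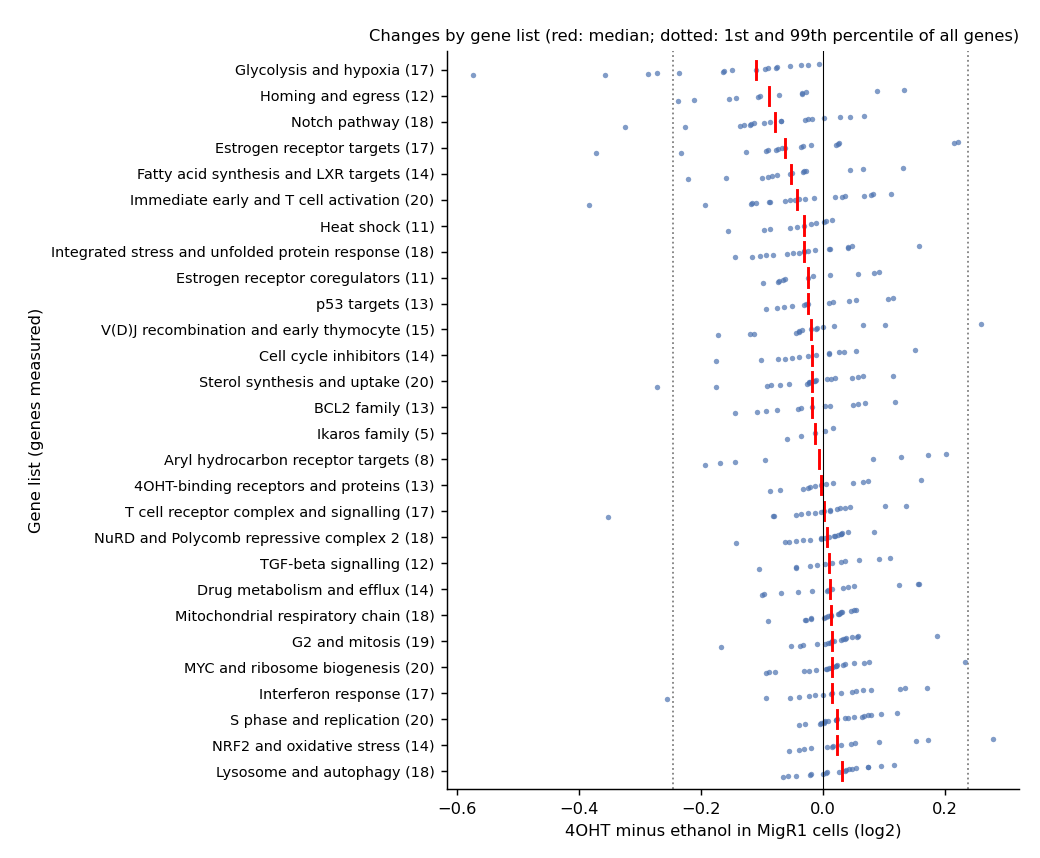
Change between 4OHT and ethanol in MigR1 cells (log2, horizontal axis) of each measured member of 28 gene lists (rows, number measured in brackets), with the median in red. Dotted lines mark the 1st and 99th percentiles of all genes, -0.25 and 0.24; the glycolysis and hypoxia list has the lowest median, -0.11, and no member above 0 (1 of 17 with each array centred on its median).

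No gene was called higher. The widest upward difference was that of Npr1, the receptor of atrial natriuretic peptide, at 4.18 and 4.23 with ethanol and 4.74 and 4.70 with 4OHT (0.52, SE 0.08, unadjusted p 1.84e-04). The groups were tight and separate, but all 4 arrays lay below the background gauge. In Ik1ER cells Npr1 read lower with 4OHT (-0.19), and the difference between the lines was called (-0.71, adjusted p 0.0291). Of the 10 named genes with the smallest p for an upward difference, 7 were below the gauge, among them Sftpc (0.41), a surfactant protein of the lung, Maob (0.33), a monoamine oxidase, and Ucn3 (0.34), a peptide hormone. Of the 10 with the smallest p for a downward difference, 6 were below it.

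Above the gauge the widest upward difference was in H3f3b, a gene for the replication-independent histone H3.3. It read 9.90 and 9.67 with ethanol and 10.28 and 10.11 with 4OHT (0.40, SE 0.15, unadjusted p 0.0254). The groups were separate by 0.207, and the replicates differed by 0.228 and 0.166. The next widest with separate groups were small too: Irgm2, an interferon-induced GTPase, stood at 0.35, Clba1 at 0.33, Plxdc2 at 0.32, Brdt, a testis bromodomain protein, at 0.31 and Cbarp at 0.31. Prcd, a photoreceptor disc protein, read 6.72 and 6.78 with ethanol and 6.99 and 7.12 with 4OHT (0.31). It was called for the difference between the lines (-0.76, adjusted p 0.0180), and read 0.45 lower in Ik1ER cells, where the fall was called. Among the genes that read lower above the gauge, Pitx1, a homeobox factor, read 5.76 and 5.57 with ethanol and 5.30 and 5.16 with 4OHT (-0.43), and Ucn, a stress peptide, 5.69 and 5.73 against 5.41 and 5.42 (-0.29).

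The last question was how the genes called between 4OHT and ethanol in Ik1ER cells behaved in MigR1 cells. The Ik1ER set shares no array with the MigR1 comparison, although both were fitted with 1 error estimate. Of the 973 genes called in Ik1ER cells, none was called in MigR1 cells, where 0.00550% of all genes were called. At an unadjusted p under 0.05 stood 18 of the 973 (2.12% of all genes did). The 516 genes higher in Ik1ER cells had a median MigR1 change of 0.03 and the 457 lower a median of 0.02, against 0.01 for all genes. Their Ik1ER medians were 0.59 and -0.61. Both sets thus leaned to the same side, with 65.1% and 61.7% of changes above 0, against 53.8% of all genes and 58.2% of genes above the gauge. Across all 18193 genes the changes in the 2 lines had a Pearson r of 0.04, given as a description, since genes are not independent.

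The 24 genes of widest change in Ik1ER cells were then read in MigR1 cells. The 12 that rose there, from 1.86 to 3.02, lay between -0.24 and 0.40 in MigR1 cells, 9 of them above 0. The 12 that fell there, from -2.99 to -1.92, lay between -0.20 and 0.20, 8 of them above 0. Ms4a4b, a membrane protein of T cells, rose by 3.02 in Ik1ER cells and read 5.549 and 5.434 with ethanol and 5.497 and 5.574 with 4OHT in MigR1 cells (0.04). Lmcd1, a transcriptional cofactor, fell by 2.99 there and read 10.79 and 10.73 against 10.78 and 10.82 here (0.04). The groups overlapped for both genes.

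The difference between the lines was called for 11 of the 12 on each side, all except Mcoln3 and Ifi202b. The 24 genes were chosen for their Ik1ER change, which is a part of that difference, so the choice largely fixed these calls. Kcna2, a potassium channel, had the highest MigR1 change of the 24 (4.41 and 4.75 with ethanol, 4.84 and 5.13 with 4OHT; 0.40, unadjusted p 0.0503). Serpini1, a serine protease inhibitor, read 6.59 and 6.53 against 6.83 and 6.85 (0.28, unadjusted p 0.0154), separate groups in the direction of its Ik1ER rise of 2.11. Over all genes the difference was called for 229 (1.26%), 113 with the higher change in Ik1ER cells (0.621%) and 116 with the lower (0.638%), and 227 of these were also called in Ik1ER cells. That count was 66 and 71 without MigR1 ethanol replicate 1 or 2, 78 and 51 without MigR1 4OHT replicate 1 or 2, 103 and 109 without Ik1ER ethanol replicate 1 or 2, and 100 without both Ik1ER replicate 2 arrays. With all arrays, the 2 genes not called in Ik1ER cells were Adm and Npr1, in which the MigR1 change was the larger.

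**Figure D5:**
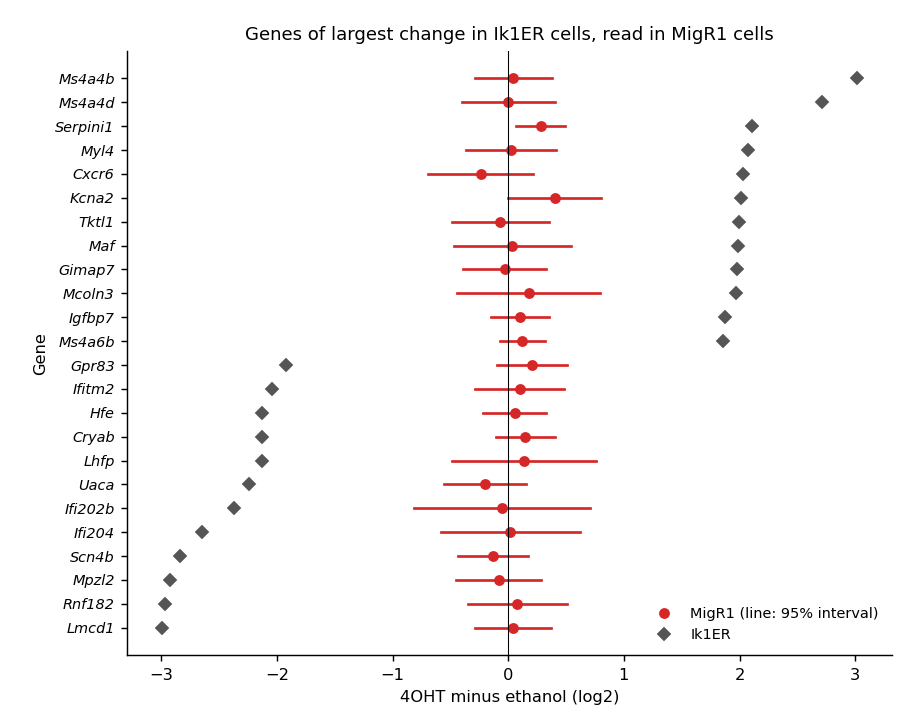
Change between 4OHT and ethanol (log2, horizontal axis) of the 12 genes with the widest rise and the 12 with the widest fall in Ik1ER cells (rows), in MigR1 cells (red points with 95% intervals) and in Ik1ER cells (grey diamonds). The MigR1 points lie between -0.24 and 0.40, and none was called.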

How the data were processed

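Biotin-labelled cRNA, made from 2.0 to 2.5 µg of total RNA, was read on Affymetrix arrays, per the labels' protocols. The authors deposited log2 expression values. RMA is the method named in the submitters' processing notes, with neither its version nor the probe set definition given in the sources used here. No scanner files or detection calls were used. Of 45101 probe sets, 64 are controls, 34945 have 1 gene symbol in the platform annotation, 932 several and 9160 none. Of those with 1 symbol, 34741 matched a RefSeq gene by identifier, which changed 0 symbols. The probe set of highest mean stood for each gene (18193 genes), those ending in _x_at only where no other existed.

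Group means of all 8 arrays were fitted without covariates by lmFit and eBayes of limma 3.58.1 in R 4.3.3 (4 residual degrees of freedom, 3.94 prior), with contrasts for each line and their difference, so Ik1ER arrays also set the error. Intervals are unadjusted 95% limits. The code was tested on simulated data. Predicted and clone-named genes were not named. Named were called genes, in each direction the 10 genes of smallest p and the 6 of widest change above the background gauge whose arrays do not overlap, the 12 of widest Ik1ER change, in every list the 4 genes of smallest p, and all 4OHT-binding and Ikaros family genes. Other list members, the hypoxia genes among them, were named for their known roles after their values were seen. The members and the lists were chosen with earlier results of these data known, so lists were described by counts and medians without a test. The alternatives covered blocks, filters, variance models, normalization, centring, probe set choice, arrays in the fit, a size threshold and each array left out. The textbook HIF lists, the values of other probe sets and of Il10ra, the fold counts and the HIF core motif were added after seeing the data.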

Additional observations from a re-analysis of the deposited data

Results flagged for a closer look

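The effect of 4OHT differed between the lines for 229 genes (limma's test of the difference, Benjamini-Hochberg adjustment), and the named genes among them stood out for that test. The difference is given as the Ik1ER change minus the MigR1 change on the log2 scale. Adm (1.03) and Npr1 (-0.71) were the only ones of the 229 not called in Ik1ER cells: the MigR1 change was -1.44 for Adm and 0.52 for Npr1. Prcd differed by -0.76, with a change of 0.31 in MigR1 cells and a called fall of 0.45 in Ik1ER cells.

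For the others the MigR1 change was the smaller. Most of these genes were named for a wide Ik1ER change, which is a part of the difference. Genes with a higher change in Ik1ER cells were the membrane proteins Ms4a4b (2.97), Ms4a4d (2.71) and Ms4a6b (1.73), the protease inhibitor Serpini1 (1.83), the myosin light chain Myl4 (2.05), the chemokine receptor Cxcr6 (2.27), the channel Kcna2 (1.61), Tktl1 (2.06), the transcription factor Maf (1.95), the GTPase Gimap7 (2.01), Igfbp7 (1.77) and the adhesion receptors Cd2 (1.22) and Itgae (1.22). Genes with a lower change were Lmcd1 (-3.03), Rnf182 (-3.04), Mpzl2 (-2.84), the sodium channel subunit Scn4b (-2.71), Ifi204 (-2.66), Uaca (-2.04), Lhfp (-2.27), the small heat shock protein Cryab (-2.28), the iron regulator Hfe (-2.19), Ifitm2 (-2.14), Gpr83 (-2.12) and Nqo1 (-0.91). Groups of 2 arrays were not tested for an array that stands apart from its group.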

How the results depend on the processing

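The count of called MigR1 genes was 0 with dim genes left out, where Adm was not tested, and also 0, with Adm at the adjusted p given, after repeated quantile normalization (-1.43, 0.0541), with the mean over probe sets (-1.11, 0.0825), with every probe set on its own (-1.44, 0.0986), with the 4 MigR1 arrays alone (-1.44, 0.766) and without both Ik1ER replicate 2 arrays (-1.44, 0.766). It stayed at 1 with a trended and robust variance, with median centring and with a size threshold. Leaving out each array in turn gave 0 to 1 calls, -1.61 to -1.27 for Adm, 51 to 269 genes for the difference between the lines, 11 to 17 glycolysis and hypoxia genes below 0, and a median of -0.0059 to 0.061 for genes called higher in Ik1ER cells.

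The groups share replicate numbers, which no label ties to a culture or day. Deviations of same-numbered arrays correlated at 0.269 in MigR1 and 0.448 in Ik1ER cells. With the replicate block of 2 numbers, 0 genes were called (Adm -1.44, adjusted p 0.110), and 477 against 386 stood at an unadjusted p under 0.05. With a replicate block within each line, 0 genes were called (Adm -1.44, adjusted p 0.389), 809 stood at an unadjusted p under 0.05, and 639 differed between the lines. That last count was 439 with a trended and robust variance, 112 with a size threshold and 100 without both Ik1ER replicate 2 arrays. The causes were not tested.

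No called change turned its sign, but 61 of 194 named genes, none of them called in MigR1 cells under any alternative, read on both sides of 0 over the alternatives (Esr1 from -0.21 to 0.53). Counts of calls and medians of the Ik1ER-called genes moved by more than 1.5 times or the replicate spread in 27 of 85 values, list summaries in 21 of 602 and changes of named genes in 128 of 3436. The size of a MigR1 change could not move with a block, another variance model, a size threshold or only Ik1ER arrays left out. Such settings are among the values counted for lists and named genes, so these low shares do not measure stability. No gene was called higher in MigR1 cells, and none of the Ik1ER-called genes was called there, under any alternative run. With so few calls in MigR1 cells, the absence of Ik1ER-called genes among them was close to fixed in advance. Array signal limits what can be said: 6968 of 18193 genes lay at or below the background gauge, and the 95% interval of the median gene reached 0.220 to either side.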
